A study of Mus musculus with 15 samples.

Results

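Promoter contacts of hippocampal neuronal nuclei in the group titled Reactivated were compared with those in the group titled Early, across all promoters of a promoter-capture Hi-C table. The 2 groups hold 4 libraries each, 8 of the 15 in the series. The table lists 36353 pairs of a promoter and a HindIII fragment, called listings here. Of these, 24436 had a score in at least 1 of the 8 libraries, on 21858 of 33334 fragments and for 4176 of 4429 promoters.

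Every library came from ArcCreERT2 mice crossed to an R26R-STOP-floxed eYFP reporter, genotype +/+ in the labels. No age is stated for the mice. In this line the Arc promoter drives a tamoxifen-dependent recombinase, so the reporter marks cells in which Arc was active while the drug was present, and nuclei were sorted by antibodies to NeuN and GFP. All mice of the protocol received 4-hydroxytamoxifen 1 h before contextual fear conditioning. For every library, 48 h in the dark afterwards is also stated. Brains were taken either within 1.5 to 2 h of the task or 5 days later, the later ones with or without renewed exposure to the tone and context. The labels do not say which interval belongs to Early or to Reactivated. Their treatment field gives a collection day that climbs by sample from 0 to 14 and no recall for every library, which conflicts with the protocol, so groups were taken from titles alone. Tissue of 10 to 12 mice was pooled for 10000 nuclei per condition, and nothing in the labels ties a library to its own pool, so the p-values here measure only the spread between libraries, which may be technical.

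Promoters reach distal enhancers and other promoters through loops of chromatin. Capture Hi-C cuts and religates fixed chromatin, then enriches ligation products that contain a baited promoter, and each score in the table rates the contact of a promoter with 1 fragment in 1 library. Such contacts are known to include structural loops shared by many cell types and contacts that are gained or lost with cell state. A contact score does not measure transcription.

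The 4 promoter sequences below belong to genes described further on. Ndn and Magel2 form a pair of listings with identical scores in Reactivated 3 and 4, Cldn12 has the fragment with the largest fall, and Zfp949 has the one with the largest rise over all 4 libraries. They are RefSeq windows of 300 bases around the start on build GRCm38.p6, whereas the fragments are on mm9, and the builds were not joined. Capitals mark the GC box (gggcgg) and the HindIII site (aagctt) on either strand. The cAMP response element (tgacgtca), the site of the activity-dependent factor CREB, was also searched and matched none of the 4. Among 32851 windows of this length, 35.7% hold a GC box, 7.45% a HindIII site and 1.79% a cAMP response element. Ndn and Magel2 are imprinted neighbours with 1 start each in the table, Cldn12 is shown by the first of 3 starts, and Zfp949 has 1.
Ndn (chr7:62348027-62348326, + strand): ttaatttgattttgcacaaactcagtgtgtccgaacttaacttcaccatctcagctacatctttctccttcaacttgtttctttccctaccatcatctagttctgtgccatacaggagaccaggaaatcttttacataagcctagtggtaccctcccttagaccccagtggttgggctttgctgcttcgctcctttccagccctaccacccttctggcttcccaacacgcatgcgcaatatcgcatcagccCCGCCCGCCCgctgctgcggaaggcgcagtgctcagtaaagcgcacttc
Magel2 (chr7:62376729-62377028, + strand): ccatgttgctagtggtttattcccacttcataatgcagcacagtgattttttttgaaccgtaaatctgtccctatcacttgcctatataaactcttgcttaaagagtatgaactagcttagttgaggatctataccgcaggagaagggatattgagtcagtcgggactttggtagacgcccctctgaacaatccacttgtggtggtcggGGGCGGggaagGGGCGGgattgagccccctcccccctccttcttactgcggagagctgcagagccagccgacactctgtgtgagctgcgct
Cldn12 (chr5:5514927-5515226, - strand): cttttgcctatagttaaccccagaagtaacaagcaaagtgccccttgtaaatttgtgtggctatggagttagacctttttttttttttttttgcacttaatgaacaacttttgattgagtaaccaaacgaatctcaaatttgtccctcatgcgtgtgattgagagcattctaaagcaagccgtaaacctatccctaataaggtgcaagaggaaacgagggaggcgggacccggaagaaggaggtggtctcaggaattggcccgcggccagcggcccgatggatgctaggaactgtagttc
Zfp949 (chr9:88547770-88548069, + strand): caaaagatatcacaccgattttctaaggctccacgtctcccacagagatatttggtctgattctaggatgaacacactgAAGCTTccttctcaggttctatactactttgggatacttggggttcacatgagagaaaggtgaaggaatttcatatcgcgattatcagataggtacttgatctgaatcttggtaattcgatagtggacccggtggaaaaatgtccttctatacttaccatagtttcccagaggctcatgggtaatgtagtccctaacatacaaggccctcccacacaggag
The Ndn and Magel2 windows hold 2 GC box matches each, overlapping in Ndn, and the Zfp949 window holds 1 HindIII site.

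The Reactivated libraries were of 2 kinds. Reactivated 1 and 2 listed 32 and 335 fragments, with 28 and 227 promoters scored, whereas Reactivated 3 and 4 listed 10035 and 10514 fragments with 3554 and 3635 promoters. The Early libraries lay between, with 6077, 1500, 4866 and 5863 fragments and 2678, 1207, 2755 and 2810 promoters. Sums of scores were 3097, 36997, 7144270 and 8218430 in Reactivated and 679929, 492153, 957567 and 668267 in Early. Over all 4 libraries the groups therefore overlapped in every measure, with 5229 ± 5831 fragments in Reactivated and 4576 ± 2118 in Early (SD, n = 4 each, exact two-sided permutation p 0.971, adjusted 1 over 9 measures). Reactivated 3 and 4 alone lay above every Early library, with 2.25 times as many fragments and 11.0 times the sum of scores. The exact two-sided permutation p was 0.133 for each, the smallest that 2 against 4 libraries allow. They also listed more fragments per scored promoter, 3.26 and 3.34 against 1.42 to 2.60. No label or header states the read depth, and sequencing depth and the number of contacts cannot be told apart. Where a score is listed at 0 it may be a failed or filtered estimate.

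**Figure D1:**
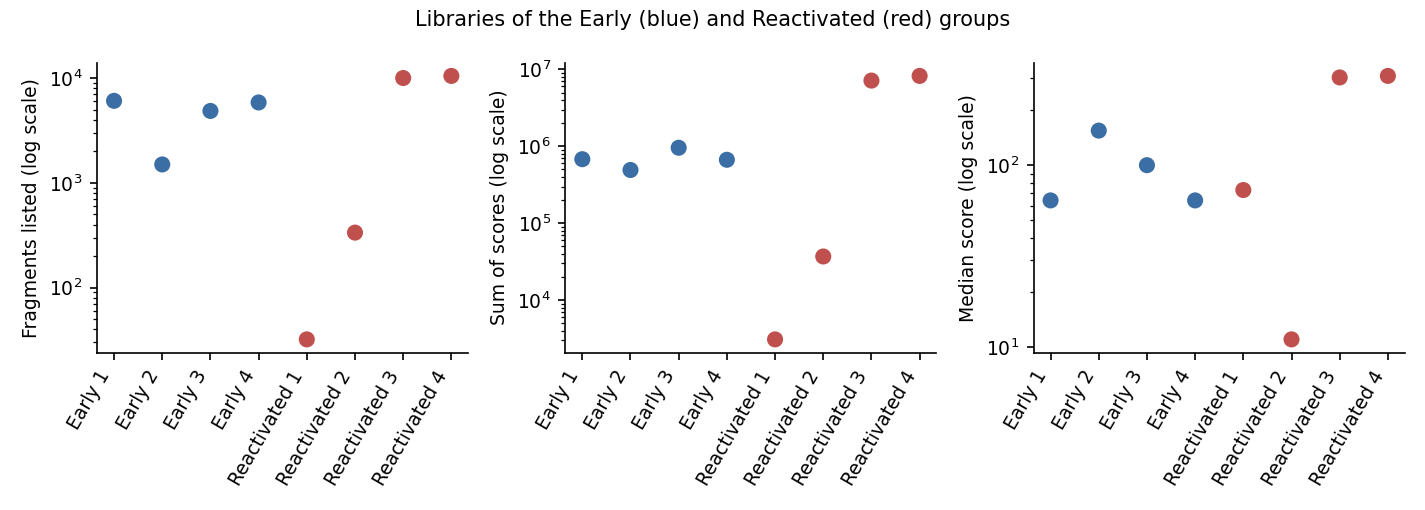
Fragments listed, sum of scores and median score (log axes) of each Early library (blue) and each Reactivated library (red). Reactivated 3 and 4 lie above every Early library in all 3 panels, and Reactivated 1 and 2 lie below every Early library in the first 2.

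Libraries within a group were not equally independent. Reactivated 3 and 4 shared 95.7% of the fragments of the smaller, Reactivated 1 was contained in Reactivated 2, and Early 3 and 4 shared 82.0%. Same-group libraries with 40% or more in common are called a set here, which gives 3 Early and 2 Reactivated sets. All other pairs of Early libraries shared 11.5% to 14.5%. Early libraries shared 18.6% to 24.0% with Reactivated 3 and 4, more than with the other Early sets, although the larger libraries offer more fragments to share. Among the 2000 highest-scored listings of each library (1715 in Early 2, which has no more), Early libraries of different sets shared 7.06% to 9.15% and Early shared 5.31% to 10.4% with Reactivated 3 and 4. These ranges overlap. The scores of Reactivated 3 and 4 were close but not identical (Pearson r 0.978 of log2 scores over shared listings), so they were kept as separate libraries. Whether they differ by more than sampling noise is not known, since the scores are not stated to be counts. In every result below that rests on them Reactivated has 1 independent set.

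**Figure D2:**
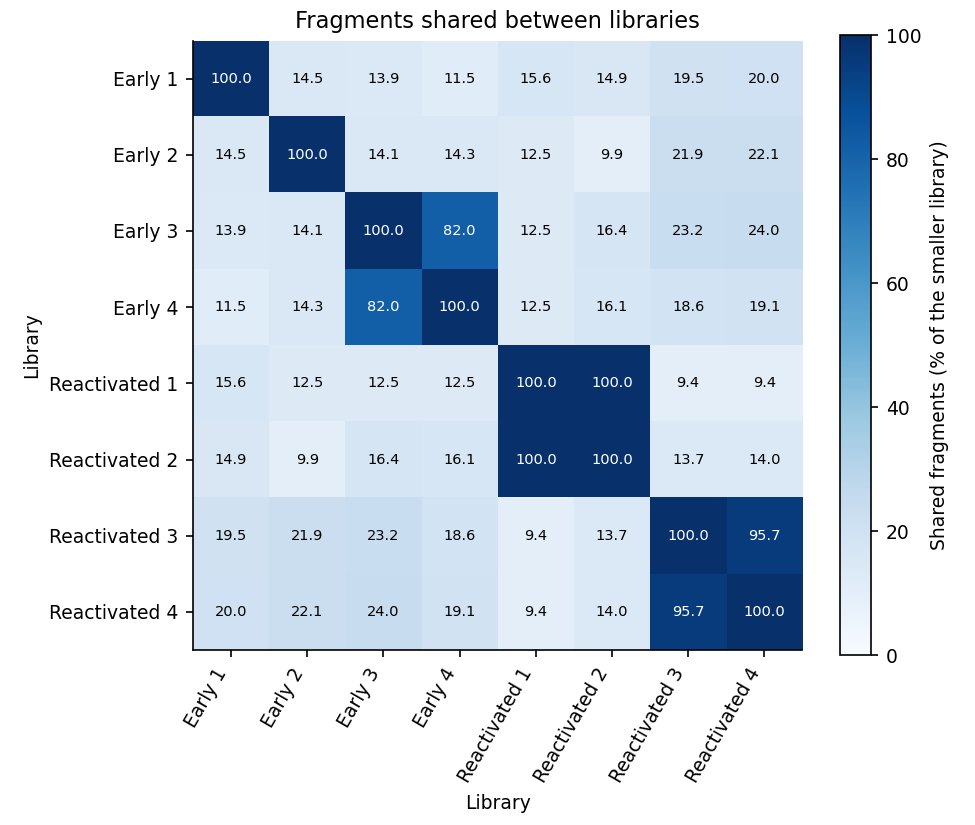
Fragments shared by each pair of the 8 libraries, as a percentage of those listed in the smaller library. High sharing is limited to Early 3 with 4 (82.0%), Reactivated 1 with 2 (100%) and Reactivated 3 with 4 (95.7%).

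At a score of 5 or more in any library, 14496 interactions were called in Early and 12289 in Reactivated, 3227 of them in both. This is 22.3% of the Early and 26.3% of the Reactivated interactions. Promoters overlapped far more than their contacts did. Of 3629 promoters with a call in Early and 3639 in Reactivated, 3129 had one in both, and 1915 had a contact on the same fragment in both. Reactivated 1 and 2 added little, since 12089 interactions remained without them. Without Early 1 the Early count was 8724, with 2036 in both.

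Among listings scored in Early, those that recurred among its libraries were found more often in Reactivated 3 and 4. Of 9916 listings scored in a single Early library, 17.8% had a score in both Reactivated 3 and 4. The share was 22.2% of 4190 listings scored in 2 Early libraries, 41.8% of 747 in 3 and 62.4% of 109 in all 4. Counted by Early set, which removes the sharing of Early 3 with 4, it was 18.7%, 39.0% and 55.5% for 1, 2 and 3 sets. The median score in Reactivated 3 and 4 went from 402 for listings of a single Early library to 930.5 for those of all 4 (medians over all such listings scored there). The Basal and Late libraries showed a like rise, from 18.6% to 76.1% and from 20.8% to 85.3%. These shares are a description of these libraries, and high-scored fragments are more easily found in any library. Of 21391 listings scored in no Early library, 37.5% had a score in both Reactivated 3 and 4. That is more than for listings of 1 or 2 Early libraries. The class includes listings that are in the table only through Reactivated 3 and 4, so the rise holds only within the Early listings.

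**Figure D3:**
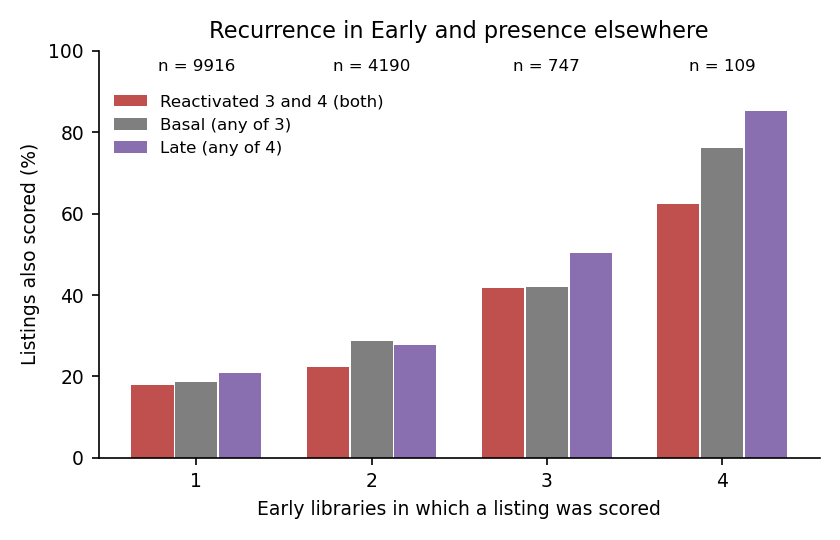
Share of Early listings also scored in both Reactivated 3 and 4 (red), in any Basal library (grey) and in any Late library (purple), by the number of Early libraries that score them. The Reactivated share goes from 17.8% to 62.4% with n = 9916, 4190, 747 and 109 listings.

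When neighbouring fragments were counted, more of the Early contacts had a counterpart. Of the listings of an Early library, 22.0% to 27.4% had a score on the identical fragment in Reactivated 3 or 4, 36.1% to 46.9% had one of the same promoter within 20 kb, and 51.9% to 67.0% within 100 kb. The same search between Early libraries of different sets, in 10 directions, found 3.85% to 15.6%, 7.95% to 28.4% and 15.2% to 48.0%, with the lowest shares in searches of the sparse Early 2. Many promoters thus had a contact in the same region on another fragment, and this held between Early sets too. Denser libraries raise such shares, and their part was not tested.

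Listings were divided by presence in Reactivated 3 and 4 and in Early. There were 8014 listings in both Reactivated 3 and 4 and in no Early library (22.0% of all listings, at 3184 promoters), 11569 in Early and in neither of them, and 3080 in both. Of the shared listings, 47.6% lay on fragments listed with several promoters, against 16.5% and 14.4% of the other classes and 15.4% of all listings. For this division alone, Reactivated 3 and 4 were scaled to the mean Early total (factors 0.0979 and 0.0851) and Early was left as deposited. On that scale the listings of Reactivated 3 and 4 absent from Early had a median score of 29.4. Of them, 14.1% fell under 2, the lowest score that any Early library lists. Another 29.6% (2374) were at or over the Early median score of 76. Of this class, 32.8% had a score in a Basal or Late library.

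The classes differed in how far from the promoter's main contact they lay. Bait positions are not in the table, so distance was taken to the fragment with the highest mean score of that promoter in the Basal and Late libraries. The median distance was 360, 323, 180 and 360 kb in Early 1 to 4 and 175 and 183 kb in Reactivated 3 and 4. Listings over 1000 kb away made up 33.9%, 34.6%, 17.1% and 33.9% in Early and 15.9% and 17.2% in Reactivated 3 and 4. Reactivated 4 lay inside the Early range in both measures because of Early 3. By class, the median was 475 kb for listings of Early absent from Reactivated 3 and 4, 185 kb for those of Reactivated 3 and 4 absent from Early, and 142 kb for shared ones. Distant listings were thus a larger share of Early 1, 2 and 4, and the contacts present in both groups lay closest.

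Over all 4 Reactivated libraries, limma on asinh scores, a scale close to the logarithm that admits 0, called 0 of 36353 listings (0% in either direction, Benjamini-Hochberg adjusted p under 0.05), with 7743 at an unadjusted p under 0.05. It called 0 of 4429 promoters by mean score (0%), with 499 at an unadjusted p under 0.05. By number of called interactions it called 0 of 4403 (0%), with 339. Without the variance trend 5 listings and 1 promoter passed. Without Reactivated 1 and 2 and on the deposited scores, 9127 listings and 1991 promoters passed, so that these 2 nearly empty libraries decide the counts. Without Reactivated 1 or Reactivated 2 alone, 4631 and 4688 listings passed, and without Early 1 36 did.

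The fragment with the largest rise over all 4 libraries was listed with Zfp949, a zinc finger gene whose promoter is printed above (chr9:88302215-88316225). Its scores were 0, 92, 1656 and 2004 in Reactivated 1 to 4, and it was listed at 0 in the other 11 libraries. Only Reactivated 1 overlapped Early. The asinh mean was 5.40 higher in Reactivated. This fragment is in the table only through Reactivated and had to differ, so no test is given. A fragment of Otof, which encodes the synaptic vesicle protein otoferlin of hair cells (chr5:30939784-30945354), was the 1 listing scored in all 4 Reactivated and in no Early library (0.00275% of all, 12 without Reactivated 1). Its scores were 73, 199, 59 and 87, and the remaining libraries had 0 apart from a score of 4 in Basal 3. The asinh difference was 5.22 (SE 1.85, limma adjusted p 0.161). Otof is the clearest case in which both Reactivated sets showed a contact that Early lacked, and it did not pass the test.

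The reverse pattern, scored in all 4 Early and in no Reactivated library, held for 27 listings (0.0743%), for 346 without Early 2 and for 91 without Early 1. The fragment of Zranb1, a deubiquitinase gene (chr7:140118679-140121260), had 735, 1641, 2880 and 1643 in Early 1 to 4 and 0 in every Reactivated library. That of Zrsr2, a gene of the minor spliceosome (chrX:160391665-160394608), had 1157, 1106, 1357 and 839 against 0. The groups did not overlap at these fragments. The asinh differences were -8.04 and -7.69, each with a limma adjusted p of 0.161. Phactr3, a protein phosphatase 1 and actin regulator gene, differed by -6.82 at the same adjusted p. Since Reactivated 1 and 2 list few fragments, a 0 there carries little information.

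Reactivated 3 and 4 were then set against Early with every library scaled to the same total. Here limma called 7265 listings higher (20.0%) and 32 lower (0.0880%). Of those higher, 6822 (93.9%) had no score in any Early library, and 5385 had none in Basal or Late either. With every set averaged to 1 value, 6907 were higher (19.0%) and 3 lower. Of these 6910 calls, 6318 had no score in any Basal, Early or Late library. Listings scored in Reactivated alone had to differ in either fit. On simulated data that kept the library sets, the fit on separate libraries also called listings that held no group difference. These calls therefore cannot be told apart from differences between library sets. They are given as a description of 1 Reactivated set, and no listing that passed was scored in 3 or more Early libraries and higher in Reactivated.

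The largest rises were at fragments with high scores in Reactivated 3 and 4 and none in Early. A fragment of Atp6v1g1, a subunit gene of the proton pump that acidifies vesicles (chr4:63136364-63136626), had 10160 and 10572, and 0 in the other 13 libraries, an asinh difference of 7.85 on equalised scores. The fragment of Cckbr, the receptor gene for brain cholecystokinin (chr7:112615334-112619028), had 8978 and 9517 against 0 in Early, with 108 and 50 in Basal 1 and 2. That of Cbln4, a cerebellin gene of synapse organisation (chr2:171871300-171873908), had 7911 and 8493 against 0 in Early and 10 in Late 4. Fragments of Qser1, Adamts7, an extracellular protease gene, Thap2, Rab33b, a Golgi and autophagy GTPase gene, and Mios, a regulator gene of mTORC1, had scores of 6652 to 8350. Their asinh differences were 7.45 to 7.57. Fragments that are in the table only through Reactivated 3 and 4 had to differ, so these values are a description and no test is given.

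Losses are contacts found in smaller libraries and not listed in the 2 largest. Every Early library but neither Reactivated 3 nor 4 scored 38 listings (0.105% of all). There were 361 without Early 2, which lists the fewest fragments in its group, and 105 without Early 1. The fragment of Cldn12, a claudin gene (chr5:5506587-5510978), had scores of 976, 6624, 1928 and 1118 in Early, 87 to 4040 in all 3 Basal and 2597 to 5049 in all 4 Late libraries, and 1000 in Reactivated 2. It was listed at 0 in Reactivated 1, 3 and 4. The equalised asinh difference of Reactivated 3 and 4 from Early was -8.60 (SE 1.07, limma adjusted p 9.3e-05), and it passed with sets as means. Because Reactivated 2 scored it at 1000, this loss belongs to 1 of the 2 Reactivated sets.

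Anxa6, the gene of a calcium-dependent membrane-binding annexin (chr11:54847279-54854732), followed the same course. Its fragment had 955, 528, 787 and 429 in Early, 2763 to 5746 in Late, 311 and 984 in Reactivated 1 and 2, and 0 in Reactivated 3 and 4. The asinh difference was -7.50 (limma adjusted p 0.0146). Fragments of Polr3g, an RNA polymerase III subunit gene, and Arxes2 had 277 to 1508 and 306 to 895 in Early, 564 and 251 in Reactivated 2, and 0 in Reactivated 3 and 4. The fragment of Atmin, the gene of a partner of the ATM kinase, had 1129 to 1921 in Early and 594 in Reactivated 2. Thus 5 of these 7 fragments had a score in Reactivated 2, and those of Zranb1 and Zrsr2 had none in the group. The limma adjusted p of the 7 ran from 9.3e-05 to 0.0635, the last for Zrsr2, which did not pass. With sets as means the Cldn12 fragment passed and the other 6 did not.

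**Figure D4:**
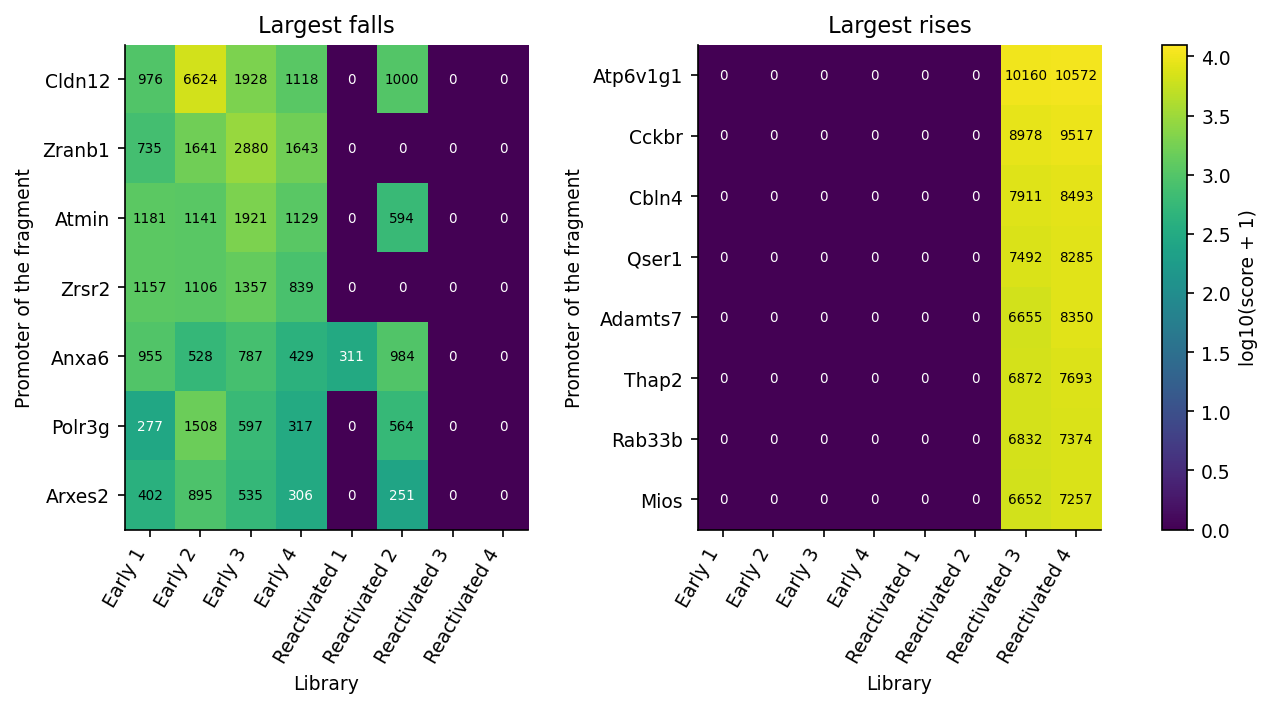
Scores of 7 fragments among the largest falls (left) and of the 8 with the largest rise (right) between Early and Reactivated 3 and 4, by library, coloured by log10(score + 1) and labelled with the deposited score. Cldn12, Atmin, Anxa6, Polr3g and Arxes2 have a score in Reactivated 2, while the rises are all at 0 in Early and in Reactivated 1 and 2.

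Other genes with a contact fragment called lower were Hdac4, a class IIa histone deacetylase gene (40, 149, 1544 and 929 in Early, 669 in Reactivated 2 and 0 in Reactivated 3 and 4), Cacna2d2, a calcium channel subunit gene (76, 768, 353 and 228 against 0), Foxo3, a forkhead factor gene (13, 755, 142 and 67 against 0) and Nfatc3, a gene of calcineurin-driven transcription (171, 200, 231 and 118 against 0). These 4 were picked from the 32 after their values were seen. Of the 32, 25 were in neither Reactivated 3 nor 4. The Zhx1 fragment had 1007 and 1240 there against 279 to 431 in Early, so that its fall of 1.24 on the equalised asinh scale is a rise on deposited scores.

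Absence of widely found contacts was not peculiar to Reactivated 3 and 4. Of 19 listings scored in at least 7 of the other 8 library sets, this pair lacked 5, those of Anxa6, Cldn12, Arxes2, Fgf18 and Polr3g. Early 3 with 4 lacked 2 of 18, Early 1 lacked 1 of 17 and Late 3 with 4 lacked 0 of 16, while Early 2 lacked 8 of 23 and Basal 1 with 2 lacked 5 of 20.

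Most promoters had more contacts in Reactivated 3 and 4. The mean number of called interactions per promoter was 2.57 there and 1.15 in Early, with 3185 promoters higher, 809 lower and 435 equal. In 1777 promoters (40.1%) both libraries exceeded every Early library, and in 29 (0.655%) both lay below every one. Nr3c2, the mineralocorticoid receptor gene of stress signalling, had 14, 1, 3 and 4 calls in Early and 19 and 18 in Reactivated 3 and 4. Ranbp6, an importin family gene, had 3, 0, 1 and 1 against 14 and 13. Slc25a37, a mitochondrial iron carrier gene, P4ha1, a collagen prolyl hydroxylase gene, Rpl21, a ribosomal protein gene, and Krtcap2 gained 11.75 to 12.75 calls. The fragments listed with Rpl21 lie on several chromosomes, so its calls are a sum over several sites. In both Nr3c2 and Ranbp6, Reactivated 3 and 4 lay above every Early library, with Early 1 the nearest. The limma adjusted p of the call numbers over all 4 Reactivated libraries was 0.877 to 1 for these 6.

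Fewer promoters lost contacts. Fgf18, a fibroblast growth factor gene, had 3, 3, 7 and 7 calls in Early and 1 in each of Reactivated 3 and 4. Grp, the gene of gastrin-releasing peptide, had 4, 1, 3 and 4 against 0. Ppp1r1b, which encodes the dopamine-regulated phosphatase inhibitor DARPP-32, had 3, 1, 3 and 3 against 0. Rab14, an endosomal GTPase gene, and Atp6ap1l had means of 3.75 and 3.25 against 0, with 0 in Early 2, and Rnf139 had 3.5 against 1. At Fgf18, Grp, Ppp1r1b and Rnf139 the groups did not overlap. The limma adjusted p of the call numbers over all 4 Reactivated libraries was 0.571 to 0.669 for these 6.

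By mean equalised score, 680 promoters were higher (15.4%) and 8 lower (0.181%) in Reactivated 3 and 4, and 103 were higher (2.33%) and 0 lower with sets as means. Both directions together, 688 promoters passed, against 251 without Reactivated 4, 273 without Reactivated 3, 322 after quantile normalization and 1991 on deposited scores. The promoters that the test ranks first have a single listed fragment, scored in Reactivated 3 and 4 and in no other library. Bmp4, a bone morphogenetic protein gene, had 1648 and 2000, E2f1, a cell cycle factor gene, 747 and 1034, and Tyrobp, a microglial adaptor gene, 1704 and 1863. Ezr, Ehd1, Erc2, an active zone scaffold gene, Gpr179, Pcgf3, a Polycomb subunit gene, and Skint2 had 616 to 1629. Their differences in mean asinh score were 5.15 to 6.10. These promoters are in the table only through Reactivated 3 and 4 and had to differ, so the values are a description and no test is given. Arc, whose promoter drives the reporter, had 4 listed fragments and 0 calls in all 8 libraries.

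The median promoter was higher by 0.48 in mean asinh score in Reactivated 3 and 4 when totals were equalised, by 1.19 as deposited and by 0.13 after quantile normalization, so gene lists are read against that shift. Of all 4429 promoters, 2983 were higher and 1188 lower, 15.4% passed as higher and 103 did with sets as means. The lists were chosen with earlier results known, and a share near 15.4% is not a result about a list. Counts of those that passed include promoters scored only in Reactivated 3 and 4, which had to differ, in the lists and among all promoters alike. Of 19 immediate early transcription factors in the table, 13 were higher and 6 lower, with a median of 0.42, and 2 passed, 0 of them with sets as means. Csrnp1 went from 1, 0, 0 and 0 calls in Early to 3 and 3, and Sik1, a CREB-regulated kinase gene, from 0, 0, 1 and 1 to 5 and 5. Junb, an AP-1 subunit gene, had 5, 5, 6 and 6 against 3 and 4 calls, and Klf10 had 3, 2, 1 and 2 against 0. Neither passed (limma adjusted p of the mean score 0.408 and 0.161). Of 11 activity-regulated effectors 9 were higher, 1 was lower and 0 passed.

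Among 27 glutamate receptors and auxiliary subunits, 7 passed as higher (25.9%) against 15.4% of all promoters, and 0 as lower. The list's median of 0.20 nevertheless lay under that of all promoters. Grin1, the obligatory NMDA receptor subunit gene, had 2, 0, 0 and 0 calls in Early and 5 in each of Reactivated 3 and 4, a difference in mean score of 3.33 (SE 0.405, limma adjusted p 0.000117). Grm5, the mGluR5 gene, had 0 in Early and scores of 440 and 328 on its single fragment, which no other library scored. Gria2, Grin3a, Grm2, Grm6 and Cacng8 also passed. Shisa9, an AMPA receptor auxiliary gene, had 4, 0, 0 and 3 calls against 0 in Reactivated 3 and 4 and did not pass. With sets as means 1 of the 27 passed, Grm5, which had to differ, and Grin1 did not (limma adjusted p 0.0737).

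The other synaptic lists stood closer to the background. Of 13 GABA genes 2 passed (15.4%), 1 of them Slc6a11, a GABA transporter gene with 2, 0, 2 and 2 calls against 7 and 7. Of 17 postsynaptic scaffold and kinase genes 2 passed (11.8%), Homer3 and Camk1, and of 23 vesicle release genes 3 did (13.0%), among them Erc2 and Unc13c. Syt5 and Cplx1, both of the release machinery, were lower by 2.17 and 2.46 without passing. Of 22 potassium and sodium channels 20 were higher and 4 passed (18.2%), among them Scn2b (0 calls in Early, 1 and 2 in Reactivated 3 and 4). Of 10 calcium channels 9 were higher and 1 passed (10.0%), Cacna1c, with 0, 1, 1 and 1 calls against 3 and 3. No member of any of these lists passed as lower. With sets as means 1 vesicle release gene and 1 potassium or sodium channel passed, and 0 of the other 3 lists.

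Of 27 chromatin modifiers 20 were higher and 5 passed (18.5%), Setd1b, Hdac7, Hdac2, Kdm4b and Arid1b. Trim28, a corepressor gene, was lower by 1.77 in mean score without passing, and 1 of its fragments was the 1 listing scored in all 8 libraries. Of 7 cohesin, CTCF and loop factors 6 were higher and 0 passed. Of 19 CREB pathway genes 11 were higher and 3 passed (15.8%), among them Atf1 and Pde1a. Of 28 MAP kinase and mTOR genes 22 were higher and 4 passed (14.3%), with Mtor at 1, 0, 1 and 0 calls in Early and 6 and 6 in Reactivated 3 and 4. Of 43 adhesion and guidance genes 30 were higher and 7 passed (16.3%), among them Epha4 and Cdh9. With sets as means 1 chromatin modifier, 1 MAP kinase or mTOR gene and 2 adhesion or guidance genes passed, and 0 of the CREB pathway.

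**Figure D5:**
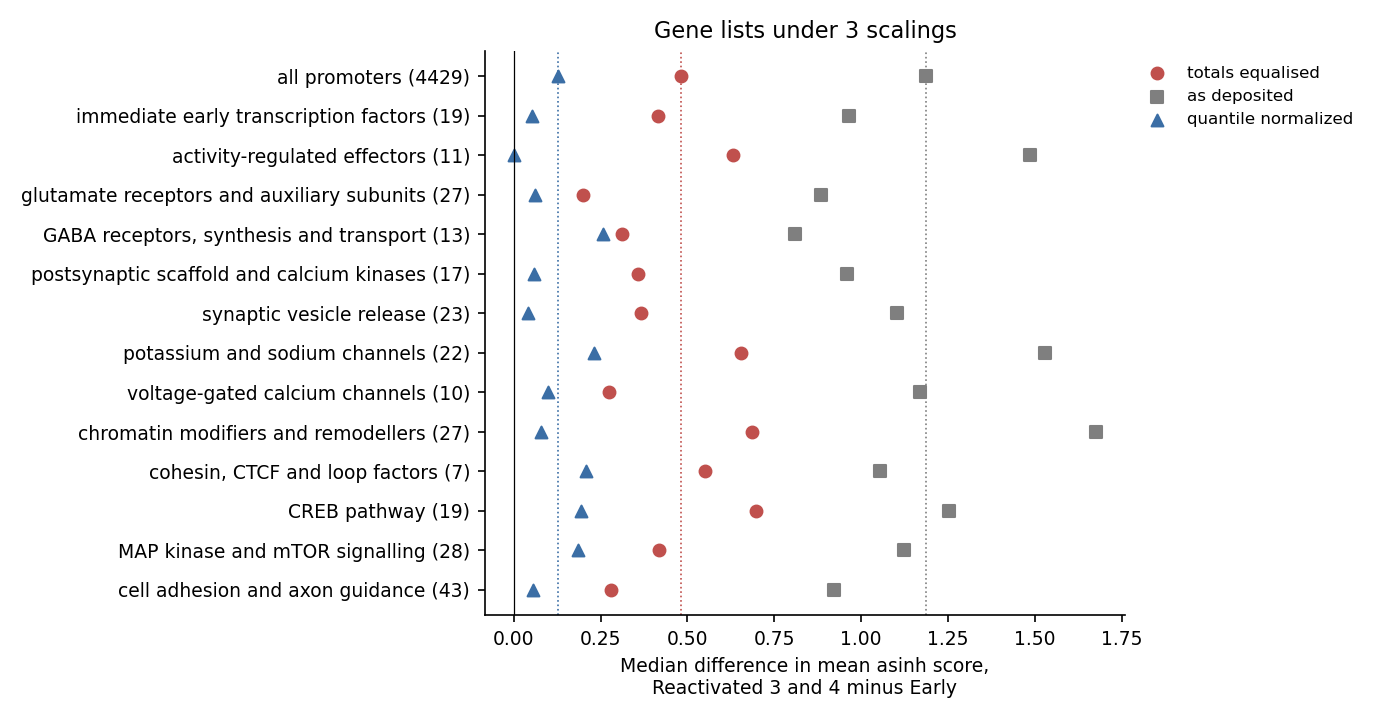
Median difference in mean asinh score, Reactivated 3 and 4 minus Early, for each gene list (number of promoters in brackets) under 3 scalings, with the median of all promoters dotted. The median of all promoters is 0.48 with totals equalised, 1.19 as deposited and 0.13 after quantile normalization.

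Markers of cell types were read as promoters, not as expression. Of 10 neuronal markers 4 were higher and 5 lower, with a median of -0.08 with totals equalised that became 0.33 as deposited, and Prox1 and Neurod2 passed. Rbfox3, the gene of NeuN, had 0 calls in all 8 libraries. Of 10 astrocyte markers 9 were higher and 4 passed (Gfap, Aldh1l1, Slc1a3 and Glul), which is 40.0% against 15.4% of all promoters, with a median of 1.39. With sets as means 0 of these 4 passed. Their calls summed to 1 to 13 in Early (median 9) and to 29 and 30 in Reactivated 3 and 4, against 7 to 19 and 19 and 24 for the neuronal list. Of 3 microglial markers 2 passed, Cx3cr1 and Tyrobp, whose listed fragments are scored in no library but Reactivated 3 and 4, so that they had to differ. With sets as means no member of the other marker lists passed. Sums were 6 to 18 against 25 and 32 for 10 oligodendrocyte markers, of which Pdgfra passed, and 2 to 22 against 39 and 40 for 11 interneuron markers, of which Cck passed. Of 3 endothelial markers Vwf passed. Whether a difference in sorted cells plays a part in the results above was not tested.

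Reactivated 3 and 4 held pairs of promoters that appear as each other's contact. Such a pair shows as 2 listings, of different promoters on different fragments, with the same score in both libraries. Among 5788 listings on single-promoter fragments with a score of 100 or more, 42 such pairs lay within 1000 kb on 1 chromosome, with 84 promoters and a median of 39.9 kb between fragments. Identical scores also arose by coincidence, with 57 pairs on different chromosomes and 6 farther apart. In 37 of the 38 pairs whose gene order RefSeq gives, the fragment listed with the upstream gene lay downstream of the other (a crossed order), and 1 pair ran parallel.

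The highest-scored pair joined Rab1b, a GTPase gene of the secretory pathway, and Cnih2, an AMPA receptor auxiliary gene, on chromosome 19, with 4332 and 4160 in Reactivated 3 and 4 for both listings. Map3k10 and Pld3 had 3893 and 3838, Atad2 and Zhx1 2656 and 2663, and Arl6ip5 and Uba3 2579 and 3024. Olig1 and Olig2, the oligodendrocyte lineage factor genes, had 901 and 1018, and Homer1, a postsynaptic scaffold gene, and Papd4 652 and 525. In 27 of the 42 pairs neither listing had a score in Early, in 11 one did and in 4 both did. Of all listings in both Reactivated 3 and 4, 8014 were in no Early library and 3080 were in Early. Absence from Early is therefore not particular to these pairs. The same search in Early 3 and 4 gave 5 pairs among 1445 listings, such as Gpr27 and Eif4e3 with 582 and 303. Of those 5, 0 were scored in Reactivated 3 and 4, where 11569 of all Early listings were in neither library.

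Ndn and Magel2, whose promoters are printed above, formed 1 of these pairs. The fragment listed with Magel2 (chr7:69492383-69495712) and that listed with Ndn (chr7:69519327-69526233) lay 28.7 kb apart by their midpoints. Both had scores of 571 and 513 in Reactivated 3 and 4 and 0 in all Early, Basal and Late libraries. Reactivated 2 scored them at 8 and 7. They are thus among 12 listings present in both Reactivated sets and absent from every Early library, with those of Ccdc90b, Fam53b, Gpr128, Klhl35, Otof, Plekha6, Sephs2, Ttll13, Ube2s and Zfp949. Of the 12, 8 lie on chromosome 7.

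Chromosome 7 stood out in Reactivated 1 and 2. It held 40.0% and 51.3% of their listings, against 4.97% to 5.41% in Early and 5.20% and 5.25% in Reactivated 3 and 4. Crebzf, the gene of a bZIP factor related to CREB, made up 139 of the 388 listings of Reactivated 2, all on chromosome 7, with a median score of 4. It had 16, 5, 10 and 10 listings in Early and 8 and 10 in Reactivated 3 and 4. The 60 other listings of Reactivated 2 on that chromosome had a median score of 5, against 142 for the 189 elsewhere. The scores of 8 and 7 at Magel2 and Ndn belong to this low class, whereas those of Zfp949 (92), Otof (199), Plekha6 (242) and Gpr128 (33) lie on other chromosomes.

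Reactivated 1 and 2 thus overlapped both sides. Of their 388 listings, 119 (30.7%) had a score in Early and 53 (13.7%) in both Reactivated 3 and 4. Of the 53, 41 were also scored in Early, 11 of them in all 4 Early libraries.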

How the data were processed

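The authors deposited an interaction score for each promoter and HindIII fragment in 15 libraries, on build mm9 per the submitters' processing notes. Each score is a whole number of at least 2, and a dot, read here as 0, stands for none. How the score was computed, filtered and normalized was not stated, so depth may enter it.

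Groups were compared with limma 3.58.1 (R 4.3.3, statmod 1.5.0, robust empirical Bayes with a variance trend) on asinh(score), without a filter, over all 15 libraries. For Reactivated 3 and 4 against Early, 13 libraries were fitted after scaling each to the median library total. Adjusted p had to be under 0.05 over the whole table. Single measures were compared by exact two-sided permutation over libraries. Same-group libraries with 40% or more of fragments in common form a set. The fits were tested on simulated data. The other values were made in Python 3.11.15 (scipy 1.17.1, numpy 2.4.6, pandas 2.3.3) and drawn with matplotlib 3.10.9.

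The named fragments are the 8 largest rises and falls (Reactivated 3 and 4, totals equalised) and the 4 with all libraries; the named promoters are the 6 with the largest gain and loss of calls, 10 past the test, up to 2 per list and direction, and Arc. Some genes that this rule selects are not reported here. Members, lists and rules were chosen with earlier results of these data known. Names matched a RefSeq symbol for 4280 promoters, a synonym for 144 and neither for 5. Deviations from the group means of same-numbered Early and Reactivated libraries had a Pearson r from -0.05 to 0.02 over listings. Those of other pairs ran from -0.05 to 0.05, so this check cannot tell whether numbers pair the libraries. No pairing was used in the main fits. Alternatives are given at the end.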

Additional observations from a re-analysis of the deposited data

Results flagged for a closer look

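In 9 of 56 groups of 4 libraries checked, 1 library stood apart from the other 3 by more than the critical value of Dixon's ratio, where chance gives about 1 in 20 for a group not chosen by its values. In Early, library 2 had a score for 1207 promoters, and library 3 had a score of 1921 at the Atmin fragment. In Reactivated, library 2 had a median fragment length of 5639 bp. Library 1 had a median span between fragments of a promoter of 135054 kb, a value that rests on 1 promoter. It also had 17.1% of its 35 listings on fragments of several promoters. Reactivated 2 was the only library of its group with a score at the fragments of Cldn12 (1000), Atmin (594), Polr3g (564) and Arxes2 (251). These 4 fragments were chosen as the largest falls and were already at 0 in Reactivated 3 and 4, so the share of 1 in 20 does not apply to them.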

How the results depend on the processing

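With all 4 Reactivated libraries, 0 listings and promoters passed under the log2 scale, sets as means and the replicate block. Whether numbers pair the libraries, as that block assumes, is not known. Without the variance trend 5 listings and 1 promoter passed, with the Reactivated and Early libraries alone 6 promoters, with totals equalised 1, and without Reactivated 1 and 2 on deposited scores 9127 listings, 1991 promoters and 743 promoters by calls. The log2 scale could not be applied to calls. Leaving out 1 library gave 0 to 4688 listings, 0 to 135 promoters and 0 promoters by calls. For Reactivated 3 and 4, 1566 listings passed when scored in at least 3 libraries, and leaving out 1 library gave 6597 to 7621. Promoters numbered 322 after quantile normalization, 103 with sets as means, 1991 as deposited, 566 with the replicate block and 251 to 798 with 1 library left out (273 without Reactivated 3, 251 without Reactivated 4). By group, the 2000 highest listings of each library gave 5761 Early, 2207 Reactivated and 391 shared interactions. With 1 library left out, Early had 8724 to 14496 and both groups shared 2036 to 3227. Listings in every Reactivated and no Early library then numbered 1 to 12, and those in every Early and no Reactivated library 27 to 346, or 39 to 361 against Reactivated 3 and 4. Differences in 7 of 9 library measures changed sign with the libraries used, while the sum of scores and the median score stayed higher in Reactivated. Reactivated 3 and 4 minus Early was 1232 promoters, -1.02 percentage points of the sum in the top 1% of fragments, -1445 kb of median span and 1.34 points of listings on shared fragments. With 1 library left out, the differences ran from -1109 to 2385 fragments, from -1093 to 109.5 promoters, from -46.2 to 917 bp of fragment length, from -0.037 to 0.659 fragments per promoter, from -1245 to 43643 kb of span and from -1.28 to 1.30 points. The positive differences in span rest on Reactivated 1, whose value comes from 1 promoter. The causes of these changes were not tested beyond the smaller number of libraries. The scores limit all results: read depth is unknown and Reactivated 3 and 4 are 1 set.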

Other observations

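The share of fragments on a chromosome lay outside the Early range in both Reactivated 3 and 4 for 8 chromosomes. On chromosomes 1, 2, 3, 5, 6, 7, 8, 10, 11, 12, 15, 18 and 19 the groups overlapped. Each of the 8 had an exact two-sided permutation p of 0.133, the smallest that 2 against 4 libraries allow. That p takes Reactivated 3 and 4 as 2 libraries although they are 1 set, so the values below are a description. Chromosome 17 held 2.95% of their fragments on average and 2.13% to 2.44% in the Early libraries, and chromosome 4 held 6.09% against 5.48% to 5.83%. Chromosomes 9, 16 and Y were higher too, by 0.291, 0.175 and 0.00974 percentage points on average. Chromosome Y holds only 0.00300% of all fragments in the table, so its difference carries little information. Chromosomes 13, 14 and X were lower, with 4.98%, 4.13% and 2.07% on average against 5.16% to 5.54%, 4.33% to 4.67% and 2.26% to 2.65%.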
